A study of Mus musculus with 18 samples.

Results

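The comparison described here set sorted mCherry+ cells, collected on day 8 of reprogramming with a high-KLF4 cassette, against cultured primary mouse keratinocytes, the cell type that fills the epidermis. The day 8 cells were embryonic fibroblasts (MEFs) carrying ROSA-rtTA and Nanog-GFP, into which the piggyBac transposon PB-TAC-OK+9MS had been transfected together with a transposase plasmid. The transposon drives OCT3/4, KLF4 from a longer cDNA, MYC and SOX2, with an mCherry reporter, from a doxycycline-responsive promoter, and the cells had received 1 µg/mL doxycycline in ES cell medium before sorting. They are therefore a sorted pool of transfected cells and not a clone. The keratinocytes came from the epidermis of newborn pups at postnatal day 2 and were grown in D-KSFM medium with mEGF and cholera toxin, without cassette or doxycycline. Members were chosen by array title, which gave 2 high-KLF4 day 8 arrays and 2 keratinocyte arrays among the 18 arrays of the series. The remaining arrays held the low-KLF4 counterpart (OKMS), other days of both cassettes, iPSC clones and the embryonic stem cell line 1A2 (mESCs, 2 arrays), and none held unconverted fibroblasts. The comparison asks which epidermal genes reached, missed or exceeded the keratinocyte level in the day 8 cells, and which fibroblast genes remained above it.

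Keratinocytes of the basal epidermis express the keratin pair Krt5 and Krt14 under the transcription factor p63 (Trp63) and are held to the basement membrane by hemidesmosomes and to each other by desmosomes. As they differentiate they switch keratins, make cornified envelope proteins that transglutaminases cross-link, secrete barrier lipids, and release kallikrein proteases that later cleave desmosomes as the outer cells are shed. Fibroblasts are mesenchymal cells that secrete collagens and other matrix proteins and lack epithelial junctions. KLF4, besides its use in reprogramming, is a transcription factor of the differentiating epidermal layers.

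Values are RMA signals, a background-corrected and quantile-normalised brightness per probe set, given on the linear scale. Signals on the 18 arrays ran between 20.2 and 19538.7, and array medians ran between 139.4 and 161.6. The data give no detection call, so a signal near the bottom of that range is not evidence of expression, and a fold change against such a signal understates the change. Differences are log2 signal in day 8 cells minus keratinocytes, tested with limma in a fit of all 12 groups, with p-values adjusted by Benjamini-Hochberg over 23410 probes. A gene is called above or below at an adjusted p under 0.05, within when it was not called and its 95% interval lay inside 2-fold, and undecided otherwise. Of all probes tested, 3075 were called higher in day 8 cells (13.1%) and 2660 lower (11.4%), 66.7% were within, and the median difference was 0.00. Without keratinocyte replicate 1 the counts were 1802 and 1640. The day 8 cells, keratinocytes and mESCs had 2 arrays each, described as independent experiments. The spread behind the p-values came from the 6 groups of the fit that had 2 arrays, among them iPSC groups of 2 clones. In bulk RNA of this kind, fewer cells of a type and less RNA per cell cannot be told apart.

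Not every marker gene chosen for the labels separated the groups. Krt5 and Krt14 were near the top of the signal range on both keratinocyte arrays. These and the keratinocyte markers Trp63, Col17a1 and Dsg3 were called lower in day 8 cells, but Itgb4 was within and Itga6 undecided. Of the fibroblast markers, Col1a1, Col1a2, Thy1, Pdgfrb, Prrx1, Dcn and Lum were called higher in day 8 cells, but Col3a1, Pdgfra and Twist2 were not called. Pou5f1, which is on the cassette and also active in pluripotent cells, had a signal of 8256 and 10568 in day 8 cells and 73.6 and 64.3 in keratinocytes. The Klf4 probe had 793 and 906 in day 8 cells and 926 and 958 in keratinocytes (log2 difference -0.15 ± 0.21 SE, adjusted p = 0.69), and whether this probe reads the transgene is not given in the sources used here. All 10 of 10 melanocyte markers were called lower in day 8 cells, with summed signals of 1013 and 879 in day 8 cells and 12020 and 8909 in keratinocytes. Their part in the differences below was not tested. The replicate arrays were less alike in the day 8 cells than in keratinocytes. Of all probes, 1028 (4.39%) were at least 2-fold apart between the 2 day 8 arrays, against 68 (0.29%) between the 2 keratinocyte arrays. On day 8 replicate 2, 167 of 220 epidermal and epithelial genes were higher than on replicate 1 (median log2 difference 0.40), and 93 of 98 fibroblast genes were lower (median -1.19).

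Of 233 listed epidermal and epithelial genes, 220 were measured, in 11 lists. In day 8 cells 123 of them were called lower than in keratinocytes, 23 were called higher, 43 were within and 31 were undecided, with a median log2 difference of -0.91. The count was then narrowed to the 157 genes whose keratinocyte mean was at least 2-fold above the mESC mean, called keratinocyte-expressed here, a limit that also leaves out genes with clear signal in both cell types. Of these keratinocyte-expressed genes 106 were below the keratinocyte level (67.5%), 16 were within (10.2%), 9 were above (5.73%) and 26 were undecided. The narrowing uses the same keratinocyte arrays as the comparison. Among all 2051 probes past the same limit, 57.4% were below, 21.3% within and 3.41% above, with a median of -1.55 for the listed genes and -0.85 for all such probes. By list, the share of keratinocyte-expressed genes below was 83.3% for cornified envelope genes, 75.0% for proteases and inhibitors and 72.7% for desmosome genes. It was 71.4% for transcription factors, 63.6% for signalling genes, and 62.5% each for epidermal keratins and the lipid barrier. Nearest to the 57.4% were hemidesmosome genes at 58.3% and junction genes at 55.6%. The other 63 listed genes had 14 above and 17 below, where 14.1% of all probes outside that limit were above and 6.94% below.

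The 9 keratinocyte-expressed genes above the keratinocyte level were Krt6b, Krt8, Sprr3, Klk10, Klk11, Alox12b, Cyp4f39, Ehf and Elf5, of which 4 were called in a fit of the 4 arrays alone. The 16 within it were Krt16, Evpl, St14, Abhd5, Elovl1, Dgat2, Cldn7, Marveld2, Itgb4, Lama5, Plec, Cd151, Nfe2l3, Tead4, Btc and Notch2. Another 14 genes were called above although keratinocytes were not 2-fold above mESCs for them: Krt13, Krt19, Krt20, Sprr2b, Tgm3, Klk12, Klk13, Klk14, Smpd1, Pkp2, Cldn6, Dst, Gjb5 and Aqp3. At the other end, 24 of the 157 were called lower with a mean under 10% of the keratinocyte mean. They included Spink5, Krt5, Epgn and Serpinb2, each under 2% of the keratinocyte mean.

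**Figure D1:**
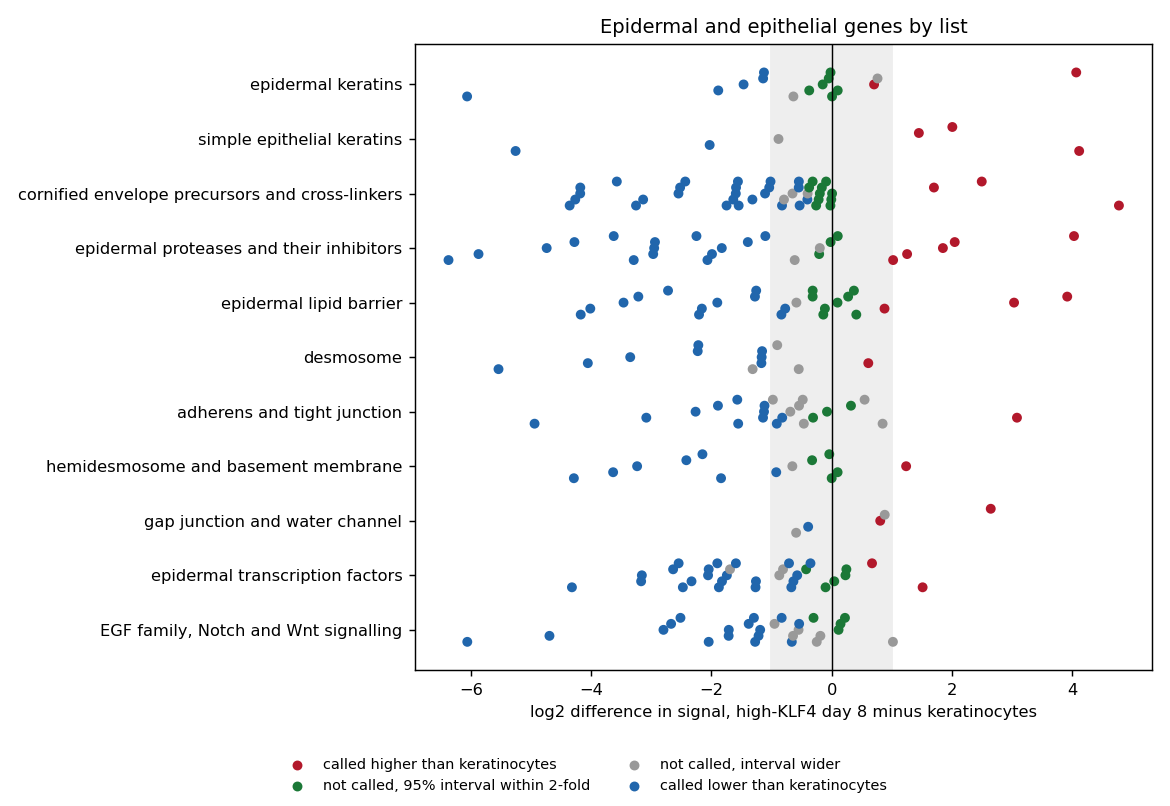
Log2 difference in signal, high-KLF4 day 8 cells minus keratinocytes, for the 220 measured epidermal and epithelial genes, 1 point a gene, in rows by list (vertical offsets only separate points). The grey band marks 2-fold either way, and most lists have blue points (called lower) far to the left with a few red points (called higher) beyond 2-fold on the right.

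Keratins form intermediate filaments as pairs of a type I and a type II protein. Of 15 epidermal keratins, 5 were below the keratinocyte level, 2 above, 6 within and 2 undecided. Krt5, the type II basal keratin, had a signal of 161 and 201 in day 8 cells and 12142 and 11903 in keratinocytes. This was 1.5% of the keratinocyte mean (log2 -6.06 ± 0.14, adjusted p = 1.1e-07), and above the 106 and 87.1 of mESCs (day 8 minus mESC 0.90, adjusted p = 0.0020). Its type I partner Krt14 had 3780 and 5459 in day 8 cells and 10144 and 9677 in keratinocytes. Krt14 thus reached 45.9% of the keratinocyte mean (-1.12 ± 0.18, adjusted p = 0.0023), and the groups did not overlap, as was so for 56.8% of all probes. In mESCs it had 119 and 129.

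Krt6a, Krt6b, Krt16 and Krt17 are keratins of wounded and fast-growing epidermis, and their levels differed by member. Krt16 had 2255 and 2760 in day 8 cells and 3011 and 3460 in keratinocytes, within 2-fold (-0.37, 95% interval -0.80 to 0.06, adjusted p = 0.20). Krt17, its relative, had 8803 and 8363 in day 8 cells and 13577 and 13079 in keratinocytes, a difference that missed the threshold (-0.64, adjusted p = 0.074). Krt6a was at 27.1% of the keratinocyte mean (1663 and 2547 in day 8 cells, 8253 and 7001 in keratinocytes). Its neighbour Krt6b was called higher at 163% (4781 and 6134 in day 8 cells, 2729 and 4033 in keratinocytes, adjusted p = 0.039). The Krt6b call was lost without day 8 replicate 2 (adjusted p = 0.18) or keratinocyte replicate 1 (adjusted p = 0.24). Krt6a and Krt6b are close copies, so probes of either may read both.

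Krt13, a type I keratin of internal stratified linings such as the mouth and oesophagus, was 16.8-fold higher in day 8 cells, with 1772 and 2933 against 128 and 144 in keratinocytes (4.07 ± 0.20, adjusted p = 4.4e-06). Its usual type II partner Krt4 was near the floor in both, with 70.9 and 63.1 in day 8 cells and 69.2 and 64.0 in keratinocytes. Krt80, which marks differentiating epithelia, was called lower with day 8 arrays far apart (908 and 2857 in day 8 cells, 4895 and 4035 in keratinocytes, adjusted p = 0.037), and the call was lost without keratinocyte replicate 1 (adjusted p = 0.18) or 2 (adjusted p = 0.095). Krt1 and Krt10, the pair of the suprabasal epidermis, were low on all 4 arrays except for Krt1 on day 8 replicate 2 (97.7 and 372 in day 8 cells, 109 and 115 in keratinocytes, adjusted p = 0.33, or 0.00021 without day 8 replicate 1). Krt10 had 132 and 127 in day 8 cells and 120 and 144 in keratinocytes.

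The 6 keratins of simple, single-layered epithelia split: 3 above, 2 below and 1 undecided. Krt8 had 10494 and 12605 in day 8 cells and 2585 and 3159 in keratinocytes, 4.02-fold higher (2.01 ± 0.21, adjusted p = 0.0003). Krt19 had 3770 and 4461 in day 8 cells and 233 and 239 in keratinocytes, 17.4-fold higher (4.12 ± 0.11, adjusted p = 2.1e-07). Krt18, the usual type I partner of Krt8, had 1432 and 2040 in day 8 cells and 3034 and 3276 in keratinocytes (-0.88, adjusted p = 0.10). Krt8 and Krt13 were thus called higher with no call for their usual partners, and the difference between partners was not tested. Krt20 was called higher from low signals (105 and 248 in day 8 cells, 54.4 and 64.1 in keratinocytes, adjusted p = 0.015, or 0.096 without keratinocyte replicate 1). Krt23 was at 67.3 on both day 8 arrays and 3384 and 1956 in keratinocytes (-5.26), and Krt7 was at 296 and 590 in day 8 cells and 2208 and 1317 in keratinocytes (-2.03).

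**Figure D2:**
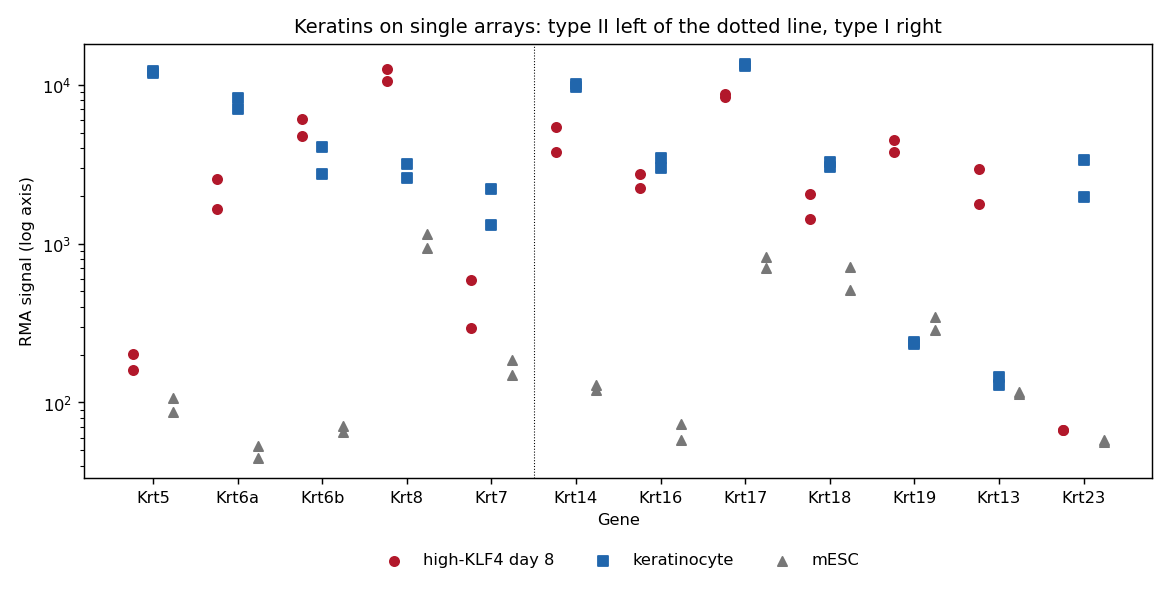
RMA signal (log axis) of 12 keratins on single arrays of high-KLF4 day 8 cells, keratinocytes and mESCs, with type II keratins left of the dotted line and type I right. Krt8, Krt19 and Krt13 lie above keratinocytes in day 8 cells, Krt16 lies near them, Krt23 lies near the mESC level, and Krt5, at 161 and 201, lies far below keratinocytes and above the 106 and 87.1 of mESCs.

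The keratin genes sit in 2 clusters, and both held genes on either side. On chromosome 15 (type II genes and Krt18), 2 were above and 5 below, and on chromosome 11 (type I genes), 3 were above and 2 below. The start regions of Krt8 and Krt5 are shown because they were the chromosome 15 keratins furthest above and furthest below the keratinocyte level. Both are RefSeq promoters of build GRCm38.p6 (250 bases before to 50 after the annotated start, minus strand), Krt8 at chr15:102004293-102004592 and Krt5 at chr15:101712856-101713155. Capitals mark CACCC or its reverse complement GGGTG, the core letters of the boxes that KLF proteins bind.
Krt8: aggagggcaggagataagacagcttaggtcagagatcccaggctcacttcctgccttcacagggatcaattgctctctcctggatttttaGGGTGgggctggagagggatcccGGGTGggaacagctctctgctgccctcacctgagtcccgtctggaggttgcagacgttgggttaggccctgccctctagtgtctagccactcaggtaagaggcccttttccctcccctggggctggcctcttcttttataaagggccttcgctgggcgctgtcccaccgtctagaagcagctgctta
Krt5: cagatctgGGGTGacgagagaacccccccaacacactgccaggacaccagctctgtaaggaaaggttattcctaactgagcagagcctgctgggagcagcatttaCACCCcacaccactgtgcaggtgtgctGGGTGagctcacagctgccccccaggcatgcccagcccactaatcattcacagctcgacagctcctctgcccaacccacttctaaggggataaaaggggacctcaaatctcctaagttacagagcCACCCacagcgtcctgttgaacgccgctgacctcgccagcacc
The Krt8 window held 2 matches and the Krt5 window 4. Over both strands, CACCC was in a window of this length at any start listed for 59.8% of 27025 genes. It was there for 6 of 7 keratinocyte-expressed genes found in the table that were above the keratinocyte level, 6 of 9 within it and 51 of 75 below it (68.0%). The longer KLF motif GGGNGTGG was there for 19.7% of all genes, for 3 of the 7, 4 of the 9 and 18 of the 75, and in neither window shown.

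Cornified envelope precursors and cross-linkers were mostly below the keratinocyte level: 25 of 41 were called lower, 3 higher, 10 were within and 3 were undecided (median -0.82). Of the 34 measured here that lie in the epidermal differentiation complex on chromosome 3, 23 were below and 2 above. Crct1 had 241 and 686 in day 8 cells and 9579 and 7246 in keratinocytes (-4.36, adjusted p = 0.00017). Sprr1a, a small proline-rich precursor, reached 2836 and 3772 in day 8 cells, against 9814 and 9923 in keratinocytes (33.1% of the mean). Loricrin (Lor), a main envelope protein of the outer layers, was low in both groups, with 131 and 115 in day 8 cells and 342 and 376 in keratinocytes (-1.55). Involucrin (Ivl), an early envelope scaffold, had 97.2 and 110 in day 8 cells and 204 and 221 in keratinocytes (-1.04). Both genes thus gave low signals in the keratinocyte cultures as well.

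The exceptions lay next to genes called lower. Sprr2b was higher in day 8 cells (174 and 435, against 46.9 and 50.8 in keratinocytes, 5.65-fold, adjusted p = 0.0015), while the next 7 Sprr2 genes along the chromosome, Sprr2d to Sprr2k, were all called lower. Among these the call of Sprr2i was lost without day 8 replicate 1 (adjusted p = 0.065) or keratinocyte replicate 1 (adjusted p = 0.073). Sprr2h had 37.7 and 45.3 in day 8 cells and 745 and 846 in keratinocytes (-4.26), and Sprr2d had 88.7 and 134 in day 8 cells and 2050 and 1900 in keratinocytes (-4.18). Sprr3, an envelope protein of internal linings, had 553 and 320 in day 8 cells and 123 and 135 in keratinocytes (3.25-fold, adjusted p = 0.001), and lies between Sprr1b and Sprr1a, both called lower. The Sprr2 genes and the Lce genes, called lower for 7 of 15 measured members and higher for none, are families of near-identical copies, so their probes may share signal.

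Transglutaminases, which cross-link the envelope, stood at different levels. Tgm3 had 2085 and 6095 in day 8 cells and 132 and 127 in keratinocytes, 27.5-fold higher (4.78 ± 0.42, adjusted p = 0.00012), the furthest above of the 220 genes. Tgm1 had 2303 and 4657 in day 8 cells and 4167 and 4472 in keratinocytes, undecided (-0.40, adjusted p = 0.67). Of the plakins that the envelope is built on, Evpl was within (273 and 456 in day 8 cells, 372 and 380 in keratinocytes, -0.09), whereas its binding partner periplakin (Ppl) was at 10.5% of the keratinocyte mean (225 and 614 in day 8 cells, 4055 and 3101 in keratinocytes, adjusted p = 0.00065). Without day 8 replicate 2, Evpl was called lower (-0.46, adjusted p = 0.010).

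Of 25 epidermal proteases and inhibitors, 15 were below the keratinocyte level, 5 above, 3 within and 2 undecided (median -1.83). All 5 above were kallikreins, the secreted serine proteases of shedding epidermis. Of the 12 kallikrein genes measured along their cluster on chromosome 7, 5 were above, 5 below and 2 within, and those above lay side by side. In chromosomal order Klk14, Klk13, Klk12, Klk11 and Klk10 were called higher, the next 5 (Klk9, Klk8, Klk7, Klk6 and Klk5) were called lower, and Klk4 and Klk15 at the far end were low on all 4 arrays. Their counts stand beside 13.1% and 11.4% of all probes called higher and lower.

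Klk14 had 1285 and 4344 in day 8 cells and 138 and 151 in keratinocytes, 16.4-fold higher (4.03 ± 0.45, adjusted p = 0.00039). Klk10 was high in both and higher in day 8 cells, with 5387 and 7101 against 2649 and 3493 in keratinocytes (1.02, adjusted p = 0.0037). The Klk13 call (286 and 941 in day 8 cells, 125 and 126 in keratinocytes, adjusted p = 0.011) was lost without keratinocyte replicate 1 (adjusted p = 0.062) or 2 (adjusted p = 0.051). The Klk9 call, at the border between both runs (141 and 277 in day 8 cells, 482 and 374 in keratinocytes, -1.10, adjusted p = 0.023), was lost without day 8 replicate 1 (adjusted p = 0.055) or keratinocyte replicate 1 (adjusted p = 0.15). Klk7, the chymotrypsin-like kallikrein of the stratum corneum, had 213 and 486 in day 8 cells and 4082 and 3857 in keratinocytes, 8.11% of the mean (-3.62 ± 0.31, adjusted p = 8.6e-05). Klk8 had 848 and 1181 in day 8 cells and 4837 and 4673 in keratinocytes (-2.25). Klk5, which activates other kallikreins, was dim in both, with 47.3 and 61.6 in day 8 cells and 147 and 137 in keratinocytes (-1.39).

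**Figure D3:**
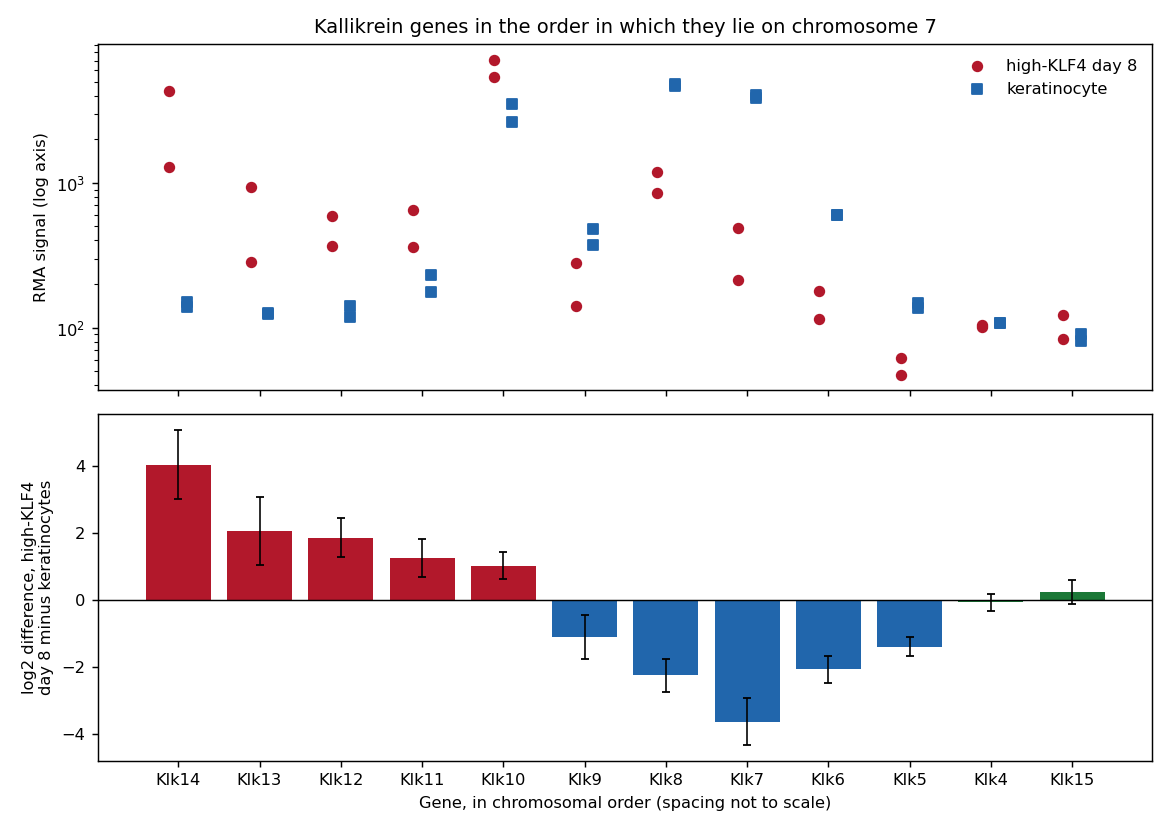
Upper panel, RMA signal (log axis) of the 12 kallikrein genes on each high-KLF4 day 8 and keratinocyte array, in chromosomal order. Lower panel, log2 difference, day 8 minus keratinocytes, with 95% intervals (bars red when called higher, blue when called lower, green when within), with 5 neighbours above 0 from Klk14 to Klk10 and 5 below 0 from Klk9 to Klk5.

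The start regions of Klk7, the gene of the cluster furthest below the keratinocyte level, and of Klk10, the gene with the highest day 8 signal among those above it, are shown in the same form (RefSeq, GRCm38.p6, plus strand), Klk10 at chr7:43780804-43781103 and Klk7 at chr7:43811044-43811343, with CACCC and GGGTG in capitals.
Klk10: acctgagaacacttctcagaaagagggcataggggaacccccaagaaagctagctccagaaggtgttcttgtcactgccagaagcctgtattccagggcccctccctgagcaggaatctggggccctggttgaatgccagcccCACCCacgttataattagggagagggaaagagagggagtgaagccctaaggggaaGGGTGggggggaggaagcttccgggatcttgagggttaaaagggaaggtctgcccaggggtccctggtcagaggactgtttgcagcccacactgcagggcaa
Klk7: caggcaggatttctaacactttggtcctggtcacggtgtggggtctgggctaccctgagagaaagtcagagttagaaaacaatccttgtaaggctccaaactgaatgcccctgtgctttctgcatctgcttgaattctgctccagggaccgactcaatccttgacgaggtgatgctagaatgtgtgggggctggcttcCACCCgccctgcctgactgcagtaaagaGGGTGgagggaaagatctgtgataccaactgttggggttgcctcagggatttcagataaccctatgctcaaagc
Klk10 and Klk7 each held 2 matches, and neither held GGGNGTGG. The matches are a description of these letters only.

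Spink5 and Serpinb2, both protease inhibitors, were the genes of this list furthest down. Spink5, whose product LEKTI restrains kallikreins, had 61.7 and 61.0 in day 8 cells and 5156 and 5012 in keratinocytes, 1.21% of the mean (-6.37 ± 0.09, adjusted p = 2.5e-08). Serpinb2, an inhibitor of plasminogen activators, had 107 and 200 in day 8 cells and 8113 and 9076 in keratinocytes (-5.87), and the leukocyte protease inhibitor Slpi had 120 and 123 in day 8 cells and 2313 and 2397 in keratinocytes (-4.28). Matriptase (St14), a membrane protease of epithelia, was within, with 2968 and 4863 in day 8 cells and 3389 and 3696 in keratinocytes (0.10, adjusted p = 0.89). The membrane protease Tmprss13 was not, with 79.9 and 103 in day 8 cells and 2984 and 1968 in keratinocytes (-4.74). For none of these 3 inhibitors did the day 8 and keratinocyte arrays overlap, nor did they for 56.8% of all probes.

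The 24 genes of the lipid barrier comprised 12 below, 3 above, 8 within and 1 undecided (median -0.68). Alox12b, the 12R-lipoxygenase that oxidises the linoleate of barrier ceramides, had 2528 and 7552 in day 8 cells and 319 and 261 in keratinocytes, 15.1-fold higher (3.92 ± 0.41, adjusted p = 0.00029). Cyp4f39, which hydroxylates ultra-long fatty acids for the same ceramides, had 4914 and 6793 in day 8 cells and 511 and 971 in keratinocytes, 8.2-fold higher (3.04, adjusted p = 0.00014). Other enzymes and carriers of that route were lower in day 8 cells. Elovl4, which elongates the fatty acids, had 380 and 631 in day 8 cells and 5083 and 5714 in keratinocytes (-3.46). Abca12, the lamellar granule lipid transporter, had 355 and 788 in day 8 cells and 5013 and 4803 in keratinocytes (-3.21), and Nipal4 had 276 and 209 in day 8 cells and 4140 and 4544 in keratinocytes (-4.17). Aloxe3, the lipoxygenase acting after Alox12b, was undecided (258 and 792 in day 8 cells, 855 and 539 in keratinocytes, adjusted p = 0.50). Elovl1, Abhd5 and Dgat2, used by many tissues, were within. Without day 8 replicate 1, Dgat2 was called higher (0.60, adjusted p = 0.042). The call of Smpd1 as higher (0.88, adjusted p = 0.022) was lost with each of the 4 arrays left out, at adjusted p between 0.052 and 0.12.

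Desmosomal genes were mostly lower: 8 of 12 were below, 1 above, 3 undecided and 0 within. Dsc3, a desmosomal cadherin of stratified epithelium, was the furthest down of the list. It had 72.6 and 282 in day 8 cells and 6700 and 6630 in keratinocytes (-5.54, adjusted p = 0.00012), and the cadherin Dsg3 had 384 and 1010 in day 8 cells and 6353 and 6347 in keratinocytes, 9.81% of the mean (-3.35, adjusted p = 0.00031). Corneodesmosin (Cdsn), added to desmosomes in the cornified layer, had 411 and 439 in day 8 cells and 7391 and 6739 in keratinocytes (-4.05). The plaque proteins desmoplakin and plakoglobin were closer but undecided. Desmoplakin (Dsp) had 1961 and 4581 in day 8 cells and 7439 and 7457 in keratinocytes (adjusted p = 0.067, or 0.018 without day 8 replicate 2), and plakoglobin (Jup) had 5190 and 7912 in day 8 cells and 9727 and 9003 in keratinocytes (adjusted p = 0.085, or 0.011 without day 8 replicate 2). The single gene above, plakophilin Pkp2 of simple epithelia and heart, had 699 and 844 in day 8 cells and 479 and 529 in keratinocytes (adjusted p = 0.045). Its call was lost without day 8 replicate 2 (adjusted p = 0.19), keratinocyte replicate 1 (adjusted p = 0.21) or 2 (adjusted p = 0.10).

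Of 22 adherens and tight junction genes, 11 were below, 1 above, 3 within and 7 undecided. Among the 18 keratinocyte-expressed ones 55.6% were below, close to the 57.4% of all probes past that limit. E-cadherin (Cdh1), the epithelial adherens cadherin, reached 3338 and 4445 in day 8 cells, against 6949 and 6667 in keratinocytes, 56.6% of the mean (-0.82 ± 0.24, adjusted p = 0.036). This call was lost without day 8 replicate 1 (adjusted p = 0.15), keratinocyte replicate 1 (adjusted p = 0.15) or 2 (adjusted p = 0.11). Epcam, an epithelial surface glycoprotein, had 1213 and 1041 in day 8 cells and 2338 and 2623 in keratinocytes, 45.4% (-1.14, adjusted p = 0.00085). P-cadherin (Cdh3), of basal keratinocytes, was lower still, with 570 and 264 in day 8 cells and 3178 and 3394 in keratinocytes (-3.08, adjusted p = 0.0013).

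Claudins, the strand proteins of tight junctions, differed by member. Cldn1, needed for the epidermal barrier, had 143 and 818 in day 8 cells and 11270 and 9811 in keratinocytes, 3.26% of the mean (-4.94, adjusted p = 0.00093). Cldn6, a claudin of embryonic epithelia, had 2190 and 4136 in day 8 cells and 330 and 382 in keratinocytes, 8.48-fold higher (3.08, adjusted p = 0.00089). Cldn4 had 3675 and 6992 in day 8 cells and 10905 and 9126 in keratinocytes (adjusted p = 0.18), and Cldn7 had 802 and 1294 in day 8 cells and 616 and 1078 in keratinocytes (within). Occludin (Ocln) was at 359 and 900 in day 8 cells and 867 and 725 in keratinocytes, which overlapped (adjusted p = 0.59). Rab25 and the splicing regulator Esrp1 were called lower at 20.8% and 27.0% of the keratinocyte mean. Both calls were lost without day 8 replicate 1 (adjusted p = 0.051 for Rab25 and 0.061 for Esrp1) or keratinocyte replicate 1 (0.059 and 0.077) or 2 (0.057 and 0.095).

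Of 13 genes of the hemidesmosome and basement membrane, 7 were below, 1 above, 4 within and 1 undecided. Among the 12 keratinocyte-expressed ones 58.3% were below, close to the 57.4% of all probes past that limit. Integrin beta 4 (Itgb4), the core receptor subunit, was within, with 4176 and 6204 in day 8 cells and 4430 and 5091 in keratinocytes (0.10, 95% interval -0.53 to 0.73). Its partner integrin alpha 6 (Itga6, CD49f) was undecided at 63.6%, with 2375 and 3556 in day 8 cells and 4367 and 4780 in keratinocytes (adjusted p = 0.071, or 0.023 with a difference of -0.94 without day 8 replicate 2). Plectin (Plec), the linker to keratin filaments, had 957 and 1055 in day 8 cells and 961 and 1048 in keratinocytes.

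Others of the list were lower. Collagen XVII (Col17a1) had 216 and 257 in day 8 cells and 3176 and 2694 in keratinocytes, 8.05% (-3.63 ± 0.13, adjusted p = 9.2e-07), and Lamb3, a chain of laminin 332, had 328 and 580 in day 8 cells and 2388 and 2266 in keratinocytes, 18.7%. The integrin subunit Itgb6 had 53.8 and 89.1 in day 8 cells and 1263 and 1446 in keratinocytes (-4.29), and Itga2, a collagen receptor subunit, had 228 and 245 in day 8 cells and 1542 and 3205 in keratinocytes (-3.24). Dst, which makes both the hemidesmosomal BPAG1 and forms of other tissues, was called higher (851 and 1193 in day 8 cells, 444 and 410 in keratinocytes, adjusted p = 0.025). That call was lost without day 8 replicate 2 (adjusted p = 0.12) or keratinocyte replicate 1 (adjusted p = 0.097) or 2 (adjusted p = 0.11). CD73 (Nt5e), a surface enzyme that the study also followed, was within at 78.0% (1686 and 3030 in day 8 cells, 2657 and 3159 in keratinocytes, adjusted p = 0.41). Without day 8 replicate 2 it was called lower (-0.78, adjusted p = 0.040). Among 5 gap junction and water channel genes, Aqp3, the glycerol channel of keratinocytes, was 6.27-fold higher (1679 and 2715 in day 8 cells, 434 and 267 in keratinocytes, 2.65, adjusted p = 0.00027).

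Of 31 epidermal transcription factors, 21 were below, 2 above, 5 within and 3 undecided (median -1.26). Trp63, the regulator of the stratified epithelial fate, had 119 and 95 in day 8 cells and 885 and 1018 in keratinocytes (-3.16 ± 0.13, adjusted p = 1.9e-06). The day 8 signals were near the 107 and 102 of mESCs (day 8 minus mESC 0.02, adjusted p = 0.93). Vdr, the vitamin D receptor, had 157 and 175 in day 8 cells and 4134 and 2662 in keratinocytes (-4.32), and Grhl1, a desmosomal gene regulator, had 127 and 214 in day 8 cells and 1811 and 1216 in keratinocytes (-3.17). Zfp750, which acts downstream of p63 in differentiation, had 428 and 824 in day 8 cells and 3917 and 3475 in keratinocytes (-2.64, adjusted p = 0.0024). Klf5, a relative of Klf4, had 532 and 558 in day 8 cells and 3051 and 3005 in keratinocytes (-2.47).

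The factors at or above the keratinocyte level included members of the ETS family active in epithelia. Ehf had 2806 and 2986 in day 8 cells and 2205 and 1496 in keratinocytes (159%, adjusted p = 0.049), and the call was lost without day 8 replicate 1 (adjusted p = 0.097), day 8 replicate 2 (adjusted p = 0.15) or keratinocyte replicate 2 (adjusted p = 0.27). Elf5 had 281 and 666 in day 8 cells and 185 and 124 in keratinocytes (2.86-fold, adjusted p = 0.021), lost without day 8 replicate 2 (adjusted p = 0.076) or keratinocyte replicate 2 (adjusted p = 0.13). Both calls thus depended on which arrays were kept. Tead4, a partner of YAP, was within (1527 and 2265 in day 8 cells, 1915 and 1699 in keratinocytes), as was Nfe2l3 (497 and 925 in day 8 cells, 867 and 609 in keratinocytes). Ovol1, a repressor of mesenchymal genes, was undecided (445 and 974 in day 8 cells, 1408 and 943 in keratinocytes, adjusted p = 0.13, or 0.0090 without day 8 replicate 2). Mxd1, a MYC antagonist of differentiating cells, was lower (601 and 1632 in day 8 cells, 4615 and 2661 in keratinocytes, adjusted p = 0.017, or 0.12 without keratinocyte replicate 1).

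Among 26 genes of EGF family, Notch and Wnt signalling, 16 were below, 0 above, 4 within and 6 undecided. Epigen (Epgn), an EGF receptor ligand, had 73.2 and 153 in day 8 cells and 6322 and 7893 in keratinocytes (-6.06, adjusted p = 3.7e-06). The cytokine Il1a, stored by keratinocytes, had 47.1 and 89.4 in day 8 cells and 990 and 2849 in keratinocytes (-4.69). Wnt7b had 134 and 133 in day 8 cells and 1033 and 834 in keratinocytes (-2.80). Egfr, the EGF receptor, had 1366 and 1238 in day 8 cells and 2973 and 3064 in keratinocytes (43.1%), and Notch1, which promotes spinous differentiation, had 693 and 965 in day 8 cells and 3001 and 2393 in keratinocytes (30.5%). Notch2 was within (1751 and 2130 in day 8 cells, 1894 and 1677 in keratinocytes). Btc, another EGF receptor ligand, was within at low signal and was called higher without day 8 replicate 1 (0.53, adjusted p = 0.047). Keratinocytes alone had been cultured with mEGF, and the media of the groups differed in other ways too. Culture and cell type thus cannot be told apart, for this list or for the others.

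The single arrays of other days gave no group for a test, and their levels are given in order of time. The share of the 157 keratinocyte-expressed genes at 50% or more of the keratinocyte mean was 18.5% for the day 2 array, 24.2% for day 4, 28.7% and 44.6% for the 2 day 8 arrays, and 27.4% for day 18. Day 8 replicate 2 was thus above every other array and replicate 1 close to day 18. For all 2051 probes past the same limit the shares were 55.7%, 54.6%, 52.1% and 59.7%, and 47.4%. The 2 low-KLF4 day 8 arrays had 14.6% and 21.7% of the 157 genes at that level, and 44.5% and 42.6% of the 2051 probes. They were thus below the high-KLF4 day 8 arrays for both sets.

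For Krt14 the signal was 1709 on day 2, 4319 on day 4, then 3780 and 5459 on the day 8 arrays, and 646 on day 18. Tgm3 had 749, 1896, then 2085 and 6095, and 256 on the same days. Krt13 had 1475, 2480, then 1772 and 2933, and 403. All 3 were lowest on day 18, whereas Krt5 was highest there (124, 155, then 161 and 201, and 462). Alox12b kept 2125 on day 18 (959, 2867, then 2528 and 7552 before it), and Klk14 kept 1097 (577, 1458, then 1285 and 4344). In low-KLF4 day 8 cells the signals were lower, with 315 and 251 for Krt14, 387 and 359 for Krt13, 483 and 761 for Tgm3, 105 and 101 for Klk14 and 128 and 160 for Alox12b.

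**Figure D4:**
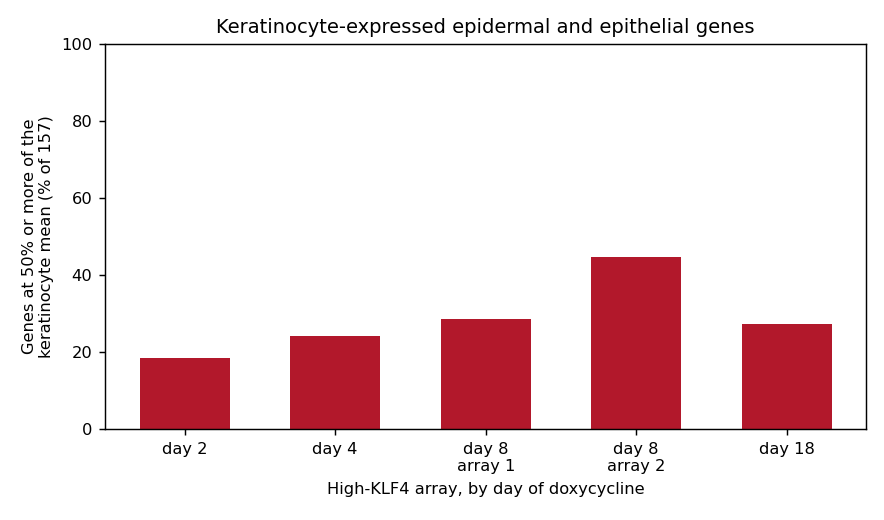
Share of the 157 keratinocyte-expressed epidermal and epithelial genes with a signal of at least 50% of the keratinocyte mean (vertical axis, % of genes), 1 bar an array, by day of doxycycline. Day 8 array 2, at 44.6%, stands above the other high-KLF4 arrays, which lie between 18.5% and 28.7%.

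The fibroblast genes ran the other way. Of 100 listed, 98 were measured, and in day 8 cells 51 of 98 were called higher than in keratinocytes (52.0%, against 13.1% of all probes), 3 lower, 5 were within and 39 undecided, with a median log2 difference of 1.86. Their summed signal was 285983 and 140584 in day 8 cells, 87303 and 84591 in keratinocytes and 95489 and 93249 in mESCs. In the high-KLF4 iPSC clones it was 139232 and 121180, so day 8 replicate 2 was close to the higher of the clones. Replicate 1 had 75 of 98 genes at least 2-fold above the keratinocyte mean (76.5%, against 7.19% of all probes) and replicate 2 had 53 (54.1%, against 8.16%). Of the 51 called genes, 46 were at least 2-fold above that mean on both day 8 arrays. The calls came from these same arrays, so this count is not separate support for them. Only 21 of the 51 were less than 2-fold apart between the 2 day 8 arrays, and 9 were at least 4-fold lower on replicate 2. Without keratinocyte replicate 1 the count of called genes was 33, and in a fit of the 4 arrays alone it was 32.

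Against keratinocytes the matrix genes were the most often called, 23 of 31 higher (74.2%, beside 13.1% of all probes) and 8 undecided (median 3.15). Against mESCs, 9 of these 31 were called higher, beside 14.5% of all probes. Decorin (Dcn), a small proteoglycan that binds collagen, had 5407 and 4232 in day 8 cells and 85.6 and 97.2 in keratinocytes, 52.4-fold higher (5.71 ± 0.41, adjusted p = 3.2e-05). Col1a1, the main collagen chain, had 6367 and 1852 in day 8 cells and 215 and 245 in keratinocytes, 14.9-fold higher (3.90 ± 0.68, adjusted p = 0.0040). Col1a2, its partner chain, had 5120 and 1266 in day 8 cells and 145 and 193 in keratinocytes (3.93, adjusted p = 0.0062). Both chains were over 3-fold higher on replicate 1 than on replicate 2, and Dcn was nearly equal. Periostin (Postn) had 6003 and 881 in day 8 cells and 53.0 and 62.8 in keratinocytes (5.32 ± 1.00, adjusted p = 0.0055).

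Other matrix genes showed how far the spread between the day 8 arrays limited the calls. Biglycan (Bgn), close in structure to decorin, had 9905 and 6315 in day 8 cells and 159 and 216 in keratinocytes (42.7-fold), but also 6716 and 5972 in mESCs. Lysyl oxidase (Lox), which cross-links collagen, had 6339 and 2206 in day 8 cells and 216 and 138 in keratinocytes (4.44, adjusted p = 0.0018). Col3a1 was undecided, with 2026 and 493 in day 8 cells and 223 and 266 in keratinocytes (adjusted p = 0.086, or 0.022 without day 8 replicate 2). Lumican (Lum) had 988 and 201 in day 8 cells and 41.8 and 45.2 in keratinocytes (3.36, adjusted p = 0.028), a call lost without day 8 replicate 1 (adjusted p = 0.13), keratinocyte replicate 1 (adjusted p = 0.13) or 2 (adjusted p = 0.10). None of these genes overlapped between the groups, and neither did 56.8% of all probes.

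Of 15 matrix-remodelling genes, 5 were higher, 1 lower, 1 within and 8 undecided. Pcolce, which enhances procollagen processing, had 7431 and 6395 in day 8 cells and 144 and 166 in keratinocytes (5.48, adjusted p = 9e-06), and the inhibitor Timp1 had 7033 and 5141 in day 8 cells and 145 and 175 in keratinocytes (5.24). Mmp2, a gelatinase, had 5970 and 2126 in day 8 cells and 462 and 347 in keratinocytes (3.15), and Mmp3, stromelysin, had 2475 and 453 in day 8 cells and 61.9 and 65.9 in keratinocytes (4.05, adjusted p = 0.0095, or 0.057 without keratinocyte replicate 1). Adam12 was lower (281 and 109 in day 8 cells, 890 and 1042 in keratinocytes, adjusted p = 0.014). It was not called without day 8 replicate 2 (adjusted p = 0.074), keratinocyte replicate 1 (adjusted p = 0.063) or 2 (adjusted p = 0.073).

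Surface proteins of fibroblasts included 11 of 17 called higher, 1 lower, 1 within and 4 undecided (median 2.35). Thy1 had 3072 and 1370 in day 8 cells and 140 and 141 in keratinocytes (3.86 ± 0.57, adjusted p = 0.0017). Cadherin 11 (Cdh11), of mesenchymal cells, had 5378 and 1451 in day 8 cells and 89.7 and 82.4 in keratinocytes (5.02, adjusted p = 0.0025). Cd34, a sialomucin of progenitors, endothelium and some fibroblasts, was higher on replicate 2 than on replicate 1 (1920 and 3108 in day 8 cells, 115 and 154 in keratinocytes, 4.20, adjusted p = 4e-05). Cd34, Eng, Tcf21, Meox2 and Hoxc10 were the only fibroblast genes with that order of the 2 arrays. Pdgfrb, a PDGF receptor, had 3203 and 647 in day 8 cells and 131 and 120 in keratinocytes (3.52, adjusted p = 0.014), a call lost without day 8 replicate 1 (adjusted p = 0.055), keratinocyte replicate 1 (adjusted p = 0.068) or 2 (adjusted p = 0.066). Pdgfra had 834 and 222 in day 8 cells and 168 and 143 in keratinocytes (adjusted p = 0.16, or 0.031 without day 8 replicate 2). Vimentin (Vim), the mesenchymal filament protein, had 11950 and 8071 in day 8 cells and 2686 and 1713 in keratinocytes (4.58-fold, adjusted p = 0.00041). The receptor kinase Axl ran against the list, with 1842 and 1515 in day 8 cells and 5206 and 5104 in keratinocytes (-1.63, adjusted p = 0.0007).

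The contractile genes of myofibroblasts were mostly undecided, 10 of 14, with 2 higher, 1 lower and 1 within (median 0.58). Acta2, smooth muscle actin, had 9043 and 2315 in day 8 cells and 3861 and 3879 in keratinocytes, so that the day 8 arrays lay on either side of the keratinocytes (adjusted p = 0.86). Tagln had 2326 and 334 in day 8 cells and 112 and 144 in keratinocytes (adjusted p = 0.085, or 0.021 without day 8 replicate 2), and Cnn1 had 1752 and 195 in day 8 cells and 96.8 and 109 in keratinocytes (adjusted p = 0.21). The called genes were Actg2 (1992 and 1096 in day 8 cells, 107 and 109 in keratinocytes, 3.77) and Ccn1 (6575 and 5706 in day 8 cells, 2573 and 2652 in keratinocytes, 1.23) as higher, and Csrp1 (5523 and 5496 in day 8 cells, 8386 and 8230 in keratinocytes, -0.59, adjusted p = 0.011, or 0.066 without keratinocyte replicate 1) as lower.

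Mesenchymal transcription factors were higher for 10 of 21, within for 2 and undecided for 9 (median 1.55). Prrx1, a homeobox factor of limb and skin mesenchyme, had 4234 and 3144 in day 8 cells and 95 and 70.1 in keratinocytes (5.48 ± 0.60, adjusted p = 0.00035). Tbx15, of dermal and limb mesenchyme, was nearly equal on the day 8 arrays, with 1477 and 1374 against 47.2 and 49.5 in keratinocytes (4.88, adjusted p = 1.7e-06). Zeb1, a repressor of epithelial genes such as Cdh1, had 1204 and 411 in day 8 cells and 83.9 and 84.2 in keratinocytes (3.07, adjusted p = 0.0047). Twist2 had 1311 and 372 in day 8 cells and 123 and 140 in keratinocytes (2.41, adjusted p = 0.060, or 0.030 without day 8 replicate 2). Snai2, which keratinocytes also express, had 1156 and 326 in day 8 cells and 2431 and 2676 in keratinocytes (-2.05, adjusted p = 0.069, or 0.020 without day 8 replicate 1).

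Set against mESCs, 31 of the 98 fibroblast genes were called higher in day 8 cells (31.6%, against 14.5% of all probes), with a median difference of 1.22. By list these were 9 of 31 matrix, 5 of 15 remodelling, 7 of 17 surface, 3 of 14 contractile and 7 of 21 transcription factor genes. Dcn stood 5.32 above mESCs on the log2 scale (adjusted p = 5e-05; 130 and 111 in mESCs) and Prrx1 2.00 above (adjusted p = 0.035; 973 and 859 in mESCs). Col1a1 was not called against mESCs (1.82, adjusted p = 0.080; 827 and 1141 in mESCs). The count was 14 without day 8 replicate 1 or without either mESC array, and 49 without day 8 replicate 2. The comparisons with keratinocytes and with mESCs use the same day 8 arrays.

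**Figure D5:**
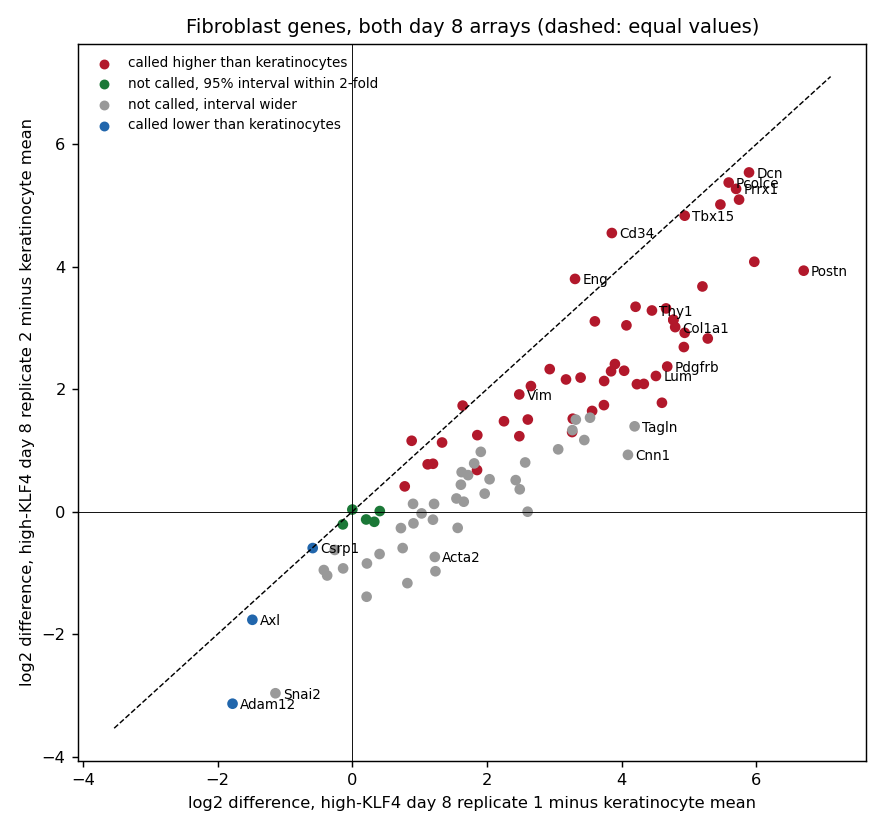
Log2 difference in signal from the keratinocyte mean for the 98 fibroblast genes on high-KLF4 day 8 replicate 1 (horizontal axis) and replicate 2 (vertical axis), 1 point a gene, coloured by the test of the group difference. Most points are right of 0 and below the dashed line of equal values, so replicate 2 was lower for 93 of 98 genes, and Dcn, Pcolce, Tbx15, Cd34 and Eng lie close to the line or above it.

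Over all genes, the largest called differences with separate arrays were of other kinds as well. The 10 furthest down included 6 of the listed epidermal genes, Spink5, Krt5, Epgn, Serpinb2, Dsc3 and Krt23. Tyrp1, a pigment enzyme of melanocytes, was the furthest down, with 54.7 and 58.3 in day 8 cells and 5595 and 4161 in keratinocytes (-6.42). The other 3 were Cpa4 (-5.90), the exonuclease Trex2 (-5.62) and Dynap (-5.32). The 10 furthest up included Pou5f1 (7.08), the embryonic peptide hormone Apela (6.92), the aldehyde dehydrogenase Aldh3a1 (6.28), the proteoglycan core Srgn (5.92), the sialomucin Podxl (5.59), the neurofilament Nefl (5.58), Ccdc80 (5.51) and Fstl1 (5.50). Aldh3a1 had 5020 and 5566 in day 8 cells and 61.1 and 75.6 in keratinocytes. Dcn and Prrx1 completed the 10.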

How the data were processed

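Per the labels and the study's methods, total RNA was hybridised to Affymetrix Mouse Gene 1.0 ST arrays, and the deposited values are linear signal intensity after RMA (in GeneSpring; version not given in the sources used here). The authors' signals were converted to log2. Probes with at least 1 gene symbol (23410 of 28853; 21789 with 1 symbol, 1621 with several, 5443 with none) were fitted with limma (version 3.58.1, R 4.3.3) over 18 arrays in 12 groups, with 6 residual degrees of freedom, and p-values were adjusted by Benjamini-Hochberg at 0.05. The number of arrays limits the precision. Promoters came from RefSeq tables (GRCm38.p6). The fit was tested on data simulated with the same spread for all groups. That setting cannot show how the wider spread between the day 8 arrays affected the calls.

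Members and gene lists were chosen with earlier results of these data known. Of 472 list entries, 449 were measured and 23 were not analysed here. A gene with several probes was given by its brightest, and in the 11 such list genes no probes were called in opposite directions. Genes named were the 10 largest differences in each direction with separate arrays. Per list, up to 4 furthest above, 4 furthest below and 4 brightest within were added. Cell type markers and the surface proteins and factors the study followed were named too. Others were chosen after their values were seen: Krt1, Krt4, Krt17, Krt18, Sprr1a, Sprr1b, Sprr2i, Sprr2k, Lor, Ivl, Ppl, Tgm1, Klk5 to Klk10, Aloxe3, Dsp, Jup, Klf5, Egfr, Notch1, Eng, Vim, Acta2, Tagln, Cnn1, Meox2, Hoxc10 and Snai2. Numbered replicates of day 8 cells and keratinocytes did not deviate together. Alternatives were the 4 arrays alone, other sets of groups, filters, a second quantile normalisation, a trended prior, a t-test and each array left out.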

Additional observations from a re-analysis of the deposited data

How the results depend on the processing

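No named gene that was called reversed its sign under the alternatives run. Most of these changed only the spread and left each difference as it was. The sign could change only with the second quantile normalisation or with an array left out. The counts depended on which groups of arrays set the spread. In a fit of the 4 arrays alone (mESC arrays in place of keratinocytes for the last count), 1350 probes were higher and 1160 lower, 4 keratinocyte-expressed genes were above, 32 fibroblast genes exceeded keratinocytes and 20 exceeded mESCs. With the low-KLF4 day 8 arrays as the only other group, an alternative chosen after seeing the data, the counts were 1325, 1277, 5, 23 and 11. The methods' t-test gave 0 probes after Benjamini-Hochberg in both comparisons (4166 and 4974 at an unadjusted p under 0.05, against 8124 in limma's fit for keratinocytes), hence 0 genes above, 0 below, 0 fibroblast genes against keratinocytes and 0 against mESCs, with 5 genes within. With the replicate number as a block, 1150 probes were higher and 832 lower, 4 genes were above, 74 below and 16 within, and 34 and 22 fibroblast genes exceeded keratinocytes and mESCs. The numbers share only a name, since replicate differences of day 8 cells and keratinocytes correlated at -0.033 over probes. Requiring keratinocytes to be 4-fold above mESCs left 4 genes above and 6 within, and a margin of 1.5-fold left 8 within. Using high-KLF4 iPSC clones in place of mESCs, also chosen after seeing the data, gave 19 fibroblast genes. With each array left out in turn, higher probes numbered 1802 to 3181, lower probes 1640 to 2561, genes above 6 to 10, below 86 to 115 and within 12 to 19, and fibroblast genes 33 to 65 against keratinocytes and 14 to 49 against mESCs. Of the 281 list genes called in the main fit, not all were still called with 1 of the 4 arrays left out, and 0 changed sign. Where the arrays of both groups do not overlap, leaving 1 out could not change the sign. A trended prior, a second quantile normalisation and leaving out the dimmest 30% of probes kept these counts within 1.5 times. Without detection calls, differences between dim signals have no bound.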

Other observations

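Some other gene groups also separated the day 8 cells from keratinocytes. Of 28 pluripotency genes, 19 were called higher in day 8 cells and 0 lower (beside 13.1% and 11.4% of all probes), while their median lay 2.64 below mESCs on the log2 scale. Nanog, a core pluripotency factor, had 888 and 963 in day 8 cells, against 70.8 and 66.5 in keratinocytes, and 6159 and 5349 in mESCs. Nr0b1 had 1088 and 1354 in day 8 cells and 57.5 and 48.9 in keratinocytes (log2 4.52, adjusted p = 4.6e-07, limma). Zfp42 (REX1), a marker of the late stage, was at 64.6 and 70.6 in day 8 cells and 64.9 and 53.2 in keratinocytes. Sox2, which is on the cassette, had 175 and 120 in day 8 cells and 62.1 and 59.8 in keratinocytes.

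Of 25 cell cycle genes, 22 were higher in day 8 cells (88%, median 1.38), beside 13.1% of all probes. Mcm6, a subunit of the replicative helicase, had 1427 and 1619 in day 8 cells and 258 and 349 in keratinocytes (2.34, adjusted p = 2.8e-05). Of 19 interferon-induced genes, 15 were higher (78.9%, beside the same 13.1%). Among them were Ifit1 (1247 and 849 in day 8 cells, 60.2 and 57.7 in keratinocytes, 4.13) and the chemokine Cxcl10 (3284 and 1087 in day 8 cells, 102 and 108 in keratinocytes, 4.17). The low-KLF4 day 8 arrays, not compared here, had 1407 and 508 for Ifit1.

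Markers of further cell types gave partial lists, beside 13.1% and 11.4% of all probes called higher and lower. Genes within the keratinocyte level were 5 of the 11 neural, 11 of the 15 immune, 6 of the 10 endothelial and 7 of the 9 trophoblast genes. Of 11 neural genes 5 were higher, with Stmn2 at 5479 and 6235 in day 8 cells, against 294 and 301 in keratinocytes, and 6081 and 4805 in mESCs. Of 15 immune genes 3 were higher, with Laptm5 at 1352 and 1963 in day 8 cells and 111 and 95.1 in keratinocytes, while the defining leukocyte gene Ptprc was at 65.6 and 52.1 in day 8 cells and 56.0 and 50.7 in keratinocytes. Of 10 endothelial genes 2 were higher and 1 lower, with Tek at 781 and 889 in day 8 cells and 61.2 and 73.2 in keratinocytes. Of 9 trophoblast genes 2 were higher, with Gata2 at 986 and 1818 in day 8 cells and 165 and 161 in keratinocytes. These genes were chosen for naming after their values were seen.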
